A study of Homo sapiens with 18 samples.

Results

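MicroRNA host transcripts are the RNAs from whose exons or introns microRNA hairpins are cut. The 8 hosts described here are MIR23AHG, MIR222HG, MIR22HG, MIR17HG, MIR31HG, MIR100HG, MIR210HG and MIRLET7BHG, 8 of the 58051 genes in the count files, taken by symbol and matched to their Ensembl identifiers. The list was chosen by symbol with the measured changes over time of these same libraries in view. Changes over time are therefore given as a description, and where the model over all genes called a host over time, the call is stated as a count only and supports nothing. Test results of the hosts are given for etoposide against DMSO and for the difference between these arms in the change over time. That difference is made up of the changes over time, so its p and intervals are not free of the choice either. All 8 passed the filter on low counts.

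The cells were hTERT RPE-1, a human retinal pigment epithelial line immortalised with telomerase reverse transcriptase, labelled as being in G0/G1. All groups were grown in medium with 10% serum and then kept for 48 h in the same medium with 0.1% serum. One arm then received 50 µM etoposide for 30 min, a poison that holds topoisomerase II on cleaved DNA, and the other arm is titled DMSO. Transcription was then blocked with 10 µM triptolide, an inhibitor of the TFIIH subunit XPB, and RNA was taken at time points 0, 20 and 40. The labels give no unit of time and do not say whether triptolide was present at 0. Each of the 6 groups (DMSO 0, 20 and 40, etoposide 0, 20 and 40) holds 3 libraries that the labels call independent replicates, and the whole series comes from 1 cell line. The series compares RNA levels after a block of transcription with and without prior poisoning of topoisomerase II.

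A microRNA is transcribed by RNA polymerase II as part of a long primary transcript. In the nucleus the Microprocessor, made of DROSHA and DGCR8, cuts the hairpin out. A hairpin in an intron can leave the spliced host intact, while cutting at a hairpin in an exon breaks the host. DICER1 then trims the hairpin to the mature microRNA, whose seed, bases 2 to 8 from its 5′ end, pairs with target mRNAs. The libraries here were made from polyadenylated RNA, so they measure the hosts and not the mature microRNAs.

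The 18 mature sequences of the arm usually taken as the guide are shown first because they are what distinguishes one host from another. They come from RefSeq (GRCh38.p14), are written 5′ to 3′, and carry the seed in capitals. The hosts with hairpins in an exon hold the following.
hsa-miR-23a-3p (MIR23AHG): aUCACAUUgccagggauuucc
hsa-miR-27a-3p (MIR23AHG): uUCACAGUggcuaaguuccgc
hsa-miR-24-3p (MIR23AHG): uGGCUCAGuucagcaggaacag
hsa-miR-17-5p (MIR17HG): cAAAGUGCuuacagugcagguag
hsa-miR-18a-5p (MIR17HG): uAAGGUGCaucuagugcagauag
hsa-miR-19a-3p (MIR17HG): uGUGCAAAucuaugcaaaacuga
hsa-miR-20a-5p (MIR17HG): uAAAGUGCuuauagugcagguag
hsa-miR-19b-3p (MIR17HG): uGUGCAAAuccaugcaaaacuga
hsa-miR-92a-3p (MIR17HG): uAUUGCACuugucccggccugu
hsa-miR-22-3p (MIR22HG): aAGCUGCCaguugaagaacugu
hsa-let-7b-5p (MIRLET7BHG): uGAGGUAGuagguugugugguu
hsa-let-7a-5p (MIRLET7BHG, and in an intron of MIR100HG): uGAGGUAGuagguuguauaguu

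The hosts with their hairpins in introns hold the following.
hsa-miR-221-3p (MIR222HG): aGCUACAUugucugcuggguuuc
hsa-miR-222-3p (MIR222HG): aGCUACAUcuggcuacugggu
hsa-miR-31-5p (MIR31HG): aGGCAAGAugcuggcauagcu
hsa-miR-100-5p (MIR100HG): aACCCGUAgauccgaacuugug
hsa-miR-125b-5p (MIR100HG): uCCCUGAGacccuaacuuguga
hsa-miR-210-3p (MIR210HG): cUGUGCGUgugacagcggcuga

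These 18 sequences hold 14 seeds, of which 4 are shared by a pair. miR-221 and miR-222 share the seed GCUACAU. Compared position by position from the 5′ end with no gap allowed, they differ at 10 of 21 positions. A gap after the seed would lower this count, and no gapped alignment was made. miR-17 and miR-20a share AAAGUGC and differ by C1U and C12U, with miR-17 named first and positions counted from the 5′ end. miR-19a and miR-19b share GUGCAAA and differ by U11C. let-7a and let-7b share GAGGUAG and differ by A17G and A19G. The let-7a sequence is encoded in both MIR100HG and MIRLET7BHG, so these 2 hosts share a mature product as well as a seed.

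Positions are those of GENCODE release 29 on GRCh38. The annotation places 21 hairpin genes on the same strand within the 8 hosts, 13 in an exon and 8 only in introns. MIR23AHG (ENSG00000267519, chr19:13823880-13842928, minus strand) is there a single exon of 19049 bases, named AC020916.1 and typed antisense, with its 3 hairpins in that exon. MIR17HG (ENSG00000215417, chr13:91347820-91354579, plus strand) carries 6 hairpins in an exon of 2 of its 3 transcripts. MIR22HG (ENSG00000186594, chr17:1711493-1717174, minus strand) carries its 1 hairpin in an exon of all 19 transcripts. MIRLET7BHG (ENSG00000197182, chr22:46053869-46113928, plus strand) has 3 of its 4 hairpins in the exon at its 3′ end.

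The other 4 hosts hold intronic hairpins alone. MIR222HG (ENSG00000270069, chrX:45745211-45770274, minus strand) has 2 exon blocks with both hairpins between them. MIR31HG (ENSG00000171889, chr9:21455642-21559669, minus strand) is a spliced RNA of 745 exon bases over a span of 104028. MIR100HG (ENSG00000255248, chr11:122028327-122556721, minus strand) has the longest span, with 39 transcripts. MIR210HG (ENSG00000247095, chr11:565660-568457, minus strand) has the shortest span of the 8.

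**Figure D1:**
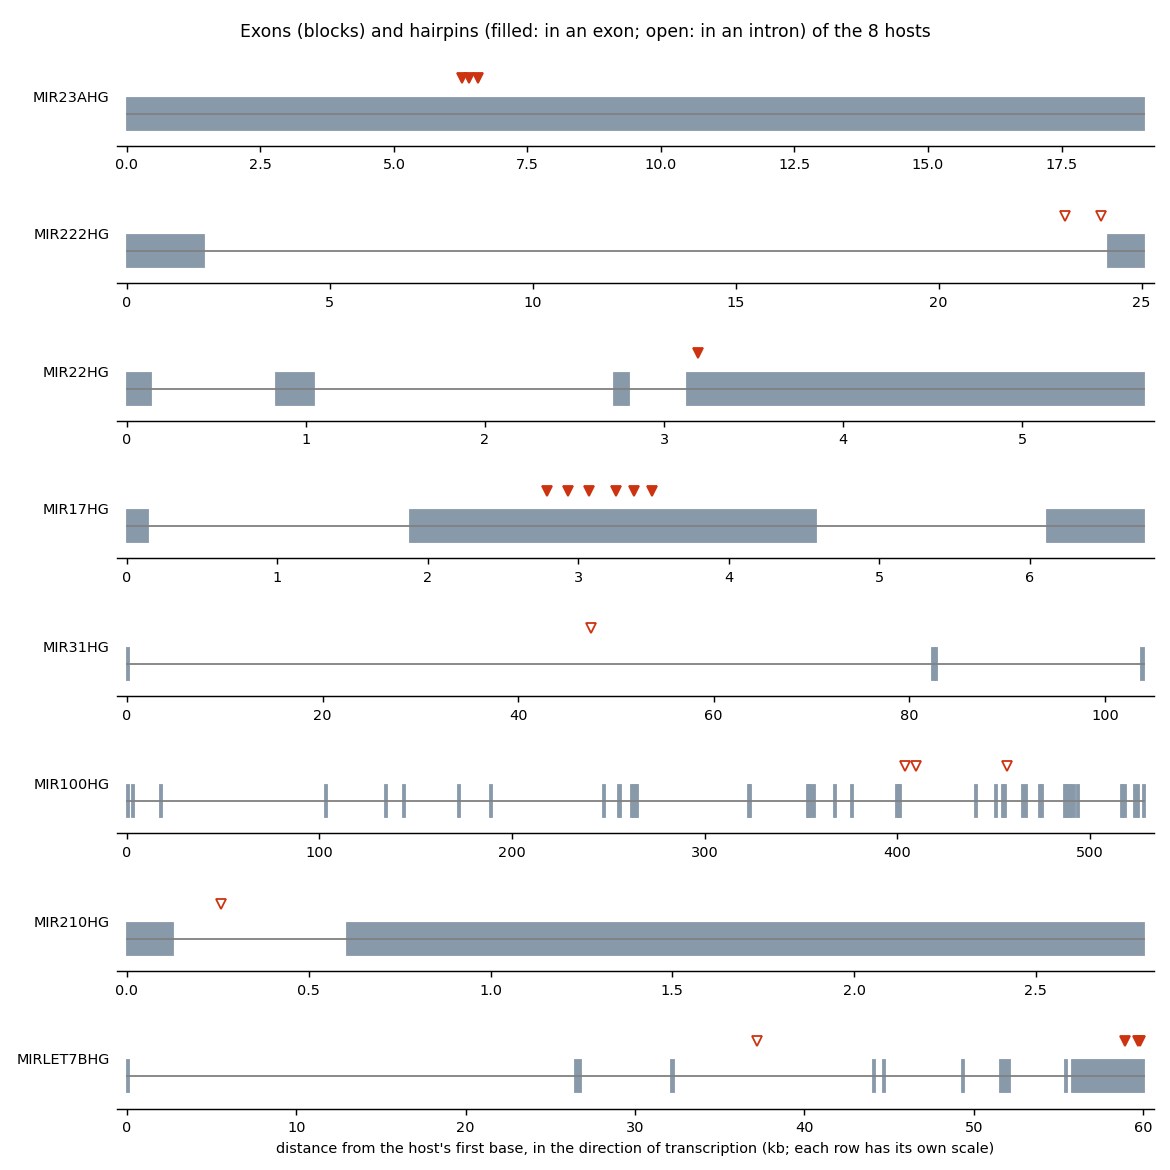
Structure of the 8 hosts, drawn to scale by distance in kb from the first base in the direction of transcription, each row on its own scale. Blocks are merged exons, filled triangles are hairpins in an exon (13) and open triangles are hairpins in an intron only (8).

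Total counts ran from 7957691 to 11580219 per library, so that 3 counts, taken as the floor of detection, equalled 0.255 to 0.374 CPM, the counts in each 1e6 counts of a library scaled by TMM. CPM follow the share of a gene in its library, so levels are relative and not per cell, and fewer cells cannot be told apart from less RNA per cell. The libraries of replicate 3 stood apart from the rest in every group, and 76 of the 14186 tested genes, MIR22HG among them, had 0 counts in all 6 of them and at least 1 count in each of the other 12. The file headers of these 6 libraries are also written differently from the rest, and whether they were counted in the same way was not tested. Replicate 2 of DMSO 0 had 1.42% of its counts on genes typed antisense, against 0.217% to 0.253% in the other 17. Of 12 markers of retinal pigment epithelium, 5 averaged 1 CPM or more, among them MITF (23.8 to 69.4 CPM) and OTX2 (17.1 to 38.3 CPM), while the defining markers DCT and TTR were at 0 in all libraries and RPE65 did not pass 0.671 CPM. The list summed to 69.8 to 108 CPM in 17 libraries and to 2550 CPM in replicate 2 of DMSO 0, where BEST1 alone stood at 2450 CPM. Keratins KRT8 and KRT18 were high (444 to 1060 CPM) and CDH2 was at 174 to 277 CPM, with CDH1 at 0 and EPCAM at most 0.183 CPM. Of 8 fibroblast markers 5 averaged 1 CPM or more. The list summed to 498 to 814 CPM, with THY1 alone at 387 to 565 CPM. Medians of COL1A2, COL3A1 and LUM were 0.0882, 0.33 and 0.192 CPM. The 6 blood markers summed to at most 1.44 CPM.

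Levels of the hosts can be set against each other only per length of exon. At DMSO 0, MIR31HG was highest at 37.3 ± 8.48 CPM per kb (SD, n = 3), followed by MIR222HG at 13.2 ± 2.85 and MIR100HG at 6.25 ± 1.89. MIR23AHG at 1.17 ± 0.576 and MIRLET7BHG at 1.15 ± 0.269 CPM per kb came next and their libraries overlapped. MIR210HG at 0.779 ± 0.171, MIR22HG at 0.728 ± 0.631 and MIR17HG at 0.497 ± 0.159 CPM per kb closed the order, each overlapping its neighbour. The mean of MIR22HG includes a 0 in replicate 3, and its other libraries were at 1.11 and 1.07 CPM per kb. The top 3 positions were held by hosts of intronic hairpins, while MIR210HG, the other host with intronic hairpins alone, was at position 6. The length used is that of all annotated exons of a host merged, so each value depends on the annotation. For MIR23AHG it is the single exon of 19049 bases. For MIR100HG it is 19385 bases merged from 39 transcripts, although the longest transcript has 3370. The place of MIR100HG in this order is therefore not fixed, and levels per transcript in use were not estimated. MIR31HG stayed first on this scale in all 6 groups. MIR222HG passed below MIR100HG on it at time point 40 of both arms. MIR222HG was then at 3.84 ± 0.874 CPM per kb with DMSO and 2.54 ± 0.654 with etoposide, against 5.95 ± 1.23 and 5.4 ± 1.78 for MIR100HG. In CPM not divided by length, MIR100HG was above MIR222HG at DMSO 0 already, at means of 121 and 36.8.

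**Figure D2:**
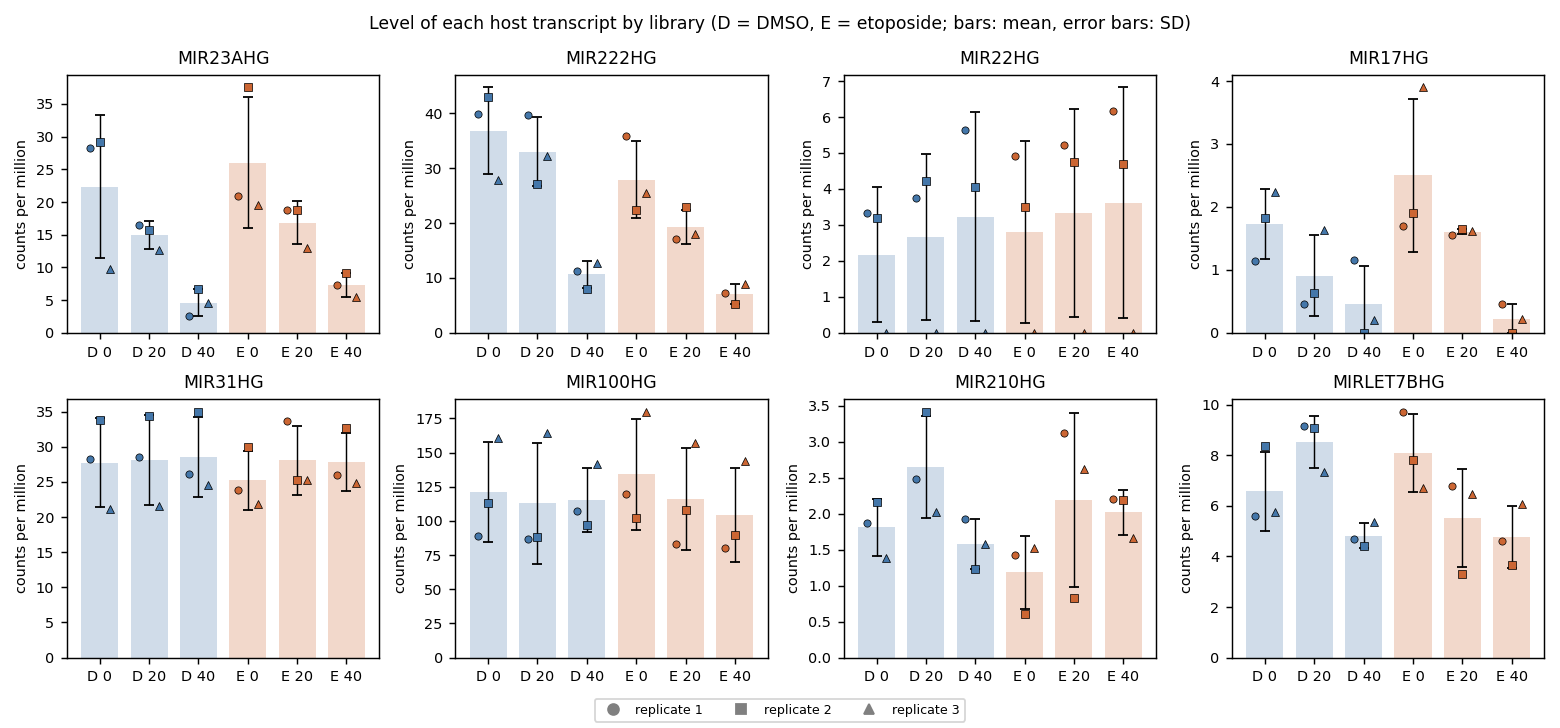
Level of each host in CPM (y axis, linear from 0) in the 6 groups (D, DMSO, blue; E, etoposide, orange; 0, 20 and 40, time points). Points are libraries with a symbol per replicate number, bars are means and error bars are SD of 3, cut at 0. MIR23AHG and MIR222HG are lower at 40 than at 0 in every library of both arms, MIR31HG is nearly level, and MIR22HG lies at 0 in every library of replicate 3.

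Over the time course some hosts lost most of their level and others kept it. MIR23AHG, MIR222HG and MIR17HG were far lower at 40 than at 0, MIRLET7BHG was lower by less in both arms, MIR31HG lay near its starting level in both arms, MIR100HG did so with DMSO and was at 78.4% of it with etoposide, and MIR210HG and MIR22HG had their lowest mean at 0 in at least 1 arm. In the model over all genes, 2 hosts (MIR23AHG and MIR222HG) were called lower from 0 to 40 with DMSO, where 0.423% of all tested genes were called, and 1 (MIR222HG) with etoposide, where 0.204% were. From 20 to 40 with DMSO 1 host (MIR222HG) was called, against 0.219% of all tested genes, and with etoposide 0 were called, against 0.0493%. From 0 to 20 neither arm had a called host or a called gene of any kind (0%). With the replicate number as a block, 3 hosts (MIR23AHG, MIR222HG and MIR17HG) were called from 0 to 40 with etoposide beside 1.01% of all genes, and 2 (MIR23AHG and MIR222HG) from 20 to 40 with DMSO and with etoposide, beside 0.775% and 0.486%. Nothing is read from these counts, since the choice of hosts used the same contrasts.

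MIR23AHG carries the cluster of miR-23a, miR-27a and miR-24-2, made from a single primary transcript. With DMSO it stood at 28.2, 29.2 and 9.7 CPM at 0 (replicates 1 to 3), at 16.5, 15.8 and 12.6 at 20, and at 2.59, 6.77 and 4.53 at 40. With etoposide it stood at 20.9, 37.6 and 19.6 CPM at 0, at 18.8, 18.8 and 13.0 at 20, and at 7.27, 9.19 and 5.54 at 40. Every library of time point 40 was below every library of time point 0 of its arm, and replicate 3 of DMSO 0 was the lowest of its group by a wide margin. The log2 change from 0 to 40 was -2.27 (SE 0.414) with DMSO and -1.82 (SE 0.404) with etoposide. Measured against the time point 0 library of the same number, 26.4 ± 19.0% remained at 40 with DMSO and 29.2 ± 5.21% with etoposide (SD, n = 3), and the DMSO libraries spread from 9.17% to 46.7%. The model with DMSO no longer called this host when replicate 1 or 2 of DMSO 0, or replicate 1 or 3 of DMSO 40, was left out. Replicate 2 of DMSO 0, the library rich in antisense counts, was close to replicate 1 at this antisense-typed gene.

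The exon of MIR23AHG overlaps ZSWIM4 on the opposite strand, and the strand setting of the counting is not given in the sources used here, so reads of the 2 genes may not be fully separated. ZSWIM4 had 149 to 265 counts in every library, and its log2 change from 0 to 40 was 0.05 (SE 0.186) with DMSO and 0.06 (SE 0.185) with etoposide. These are changes in its share of the library, and whether shared reads took part in the change of MIR23AHG was not tested.

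MIR17HG encodes the miR-17 to miR-92a cluster, a known target of MYC that promotes cell division. Its counts were low, so single reads weigh heavily. With DMSO the raw counts were 11, 16 and 21 at 0, 5, 7 and 17 at 20, and 12, 0 and 2 at 40. With etoposide they were 18, 19 and 46 at 0, 17, 16 and 13 at 20, and 5, 0 and 2 at 40. The etoposide libraries of time point 40 all lay below those of time point 0, whereas with DMSO the first library of time point 40, at 12 counts, lay above the first of time point 0. From 0 to 40 the log2 change was -1.91 (SE 0.863) with DMSO and -3.36 (SE 0.929) with etoposide. With etoposide 5 of the 14186 tested genes had a lower value, given as a description since the choice of hosts used such changes. Of the 6 libraries of time point 40, 4 were at or below the floor of 3 counts, so the size of the change is poorly fixed.

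MIRLET7BHG encodes let-7a-3, let-7b and miR-4763 in its last exon and miR-3619 in an intron, and the let-7 family is known for restraining proliferation. With DMSO it stood at 5.6, 8.35 and 5.76 CPM at 0, at 9.17, 9.08 and 7.35 at 20, and at 4.69, 4.4 and 5.38 at 40. With etoposide it stood at 9.73, 7.83 and 6.7 CPM at 0, at 6.78, 3.3 and 6.48 at 20, and at 4.6, 3.65 and 6.09 at 40. The libraries of 40 were below those of 0 in both arms, but at 20 each DMSO library was above its time point 0 partner and each etoposide library below its own. The log2 change from 0 to 40 was -0.44 (SE 0.275) with DMSO and -0.76 (SE 0.275) with etoposide. MIRLET7BHG shares exon sequence with PRR34-AS1 on the same strand and with PRR34 on the other, so part of its reads may be assigned elsewhere. PRR34-AS1 had 577 counts over all libraries and log2 changes from 0 to 40 of 0.50 (SE 0.268) with DMSO and -0.35 (SE 0.265) with etoposide.

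MIR22HG carries miR-22 in an exon of all its transcripts. With DMSO its first and second libraries held 32 and 28 counts at 0, 41 and 47 at 20, and 59 and 46 at 40. With etoposide they held 52 and 35 counts at 0, 57 and 46 at 20, and 67 and 45 at 40. All 6 libraries of replicate 3 held 0. In the libraries of replicates 1 and 2 the host was at 126% to 170% of its starting level at 40, in both arms. Without replicate 3 the log2 change from 0 to 40 was 0.57 (SE 0.342) with DMSO and 0.37 (SE 0.332) with etoposide, against 0.58 (SE 1.8) and 0.38 (SE 1.77) with it. MIR22HG overlaps WDR81 on the opposite strand, which had 21 to 32 counts in the libraries of replicate 3 and 43 to 87 in the others.

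MIR222HG gives rise to miR-221 and miR-222, which are known to repress the CDK inhibitor p27 (CDKN1B). With DMSO it stood at 39.8, 42.9 and 27.8 CPM at 0, at 39.6, 27.1 and 32.2 at 20, and at 11.3, 8.0 and 12.8 at 40. With etoposide it stood at 35.8, 22.4 and 25.5 CPM at 0, at 17.1, 22.9 and 18.1 at 20, and at 7.18, 5.22 and 8.86 at 40. In both arms every library of time point 40 was below every library of the 2 earlier time points. From 0 to 40 the log2 change was -1.79 (SE 0.253) with DMSO and -1.98 (SE 0.257) with etoposide. Most of this lay in the later interval, with a change from 0 to 20 of -0.16 (SE 0.243) with DMSO and -0.53 (SE 0.245) with etoposide, and from 20 to 40 of -1.63 (SE 0.251) and -1.45 (SE 0.255). Relative to time point 0 of the same number, 31.0 ± 13.7% remained at 40 with DMSO and 26.0 ± 7.77% with etoposide (SD, n = 3).

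Of the 21 hairpin genes, 10 have a row in the count files used here, and none of these 10 belongs to MIR17HG or MIR22HG. Among the 10, MIR221 alone held more than a few counts. MIR221 held 234 counts over the 18 libraries, while MIR222, in the same intron, held 0. The other 8 held 0 to 7 counts each, and the remaining 11 hairpin genes were not analysed here. MIR221 (chrX:45746157-45746266, minus strand) lies 56 bases from the nearest exon of its host and MIR222 lies 914 bases from it. The hairpin is shown because its row carries these reads, with the mature miR-221-3p in capitals.
MIR221: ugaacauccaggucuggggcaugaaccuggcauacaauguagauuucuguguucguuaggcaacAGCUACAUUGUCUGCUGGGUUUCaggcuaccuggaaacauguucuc

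MIR221 counts with DMSO were 27, 32 and 11 at 0, 31, 7 and 20 at 20, and 1, 1 and 4 at 40. With etoposide they were 9, 15 and 14 at 0, 15, 28 and 8 at 20, and 3, 6 and 2 at 40. The row was thus low at 40 in both arms, as its host was. The MIR221 row lies outside the host's exons and is counted apart from it, and its summed count was equal to 6.86%, 5.44% and 1.82% of the host's summed count at 0, 20 and 40 with DMSO and to 4.21%, 9.21% and 5.29% with etoposide. Its log2 change from 0 to 40 was -3.62 (SE 0.74) with DMSO and -1.63 (SE 0.695) with etoposide. The difference between arms, 1.99 (SE 1.03), had an adjusted p = 1 in edgeR's test. A row for a hairpin of 110 bases counts fragments that touch it and not mature microRNA.

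MIR31HG, the host of miR-31, is a long noncoding RNA beside the interferon gene cluster that has been studied in senescence. With DMSO it stood at 28.2, 33.8 and 21.2 CPM at 0, at 28.5, 34.3 and 21.6 at 20, and at 26.1, 35.0 and 24.5 at 40. With etoposide it stood at 23.8, 29.9 and 21.9 CPM at 0, at 33.7, 25.3 and 25.2 at 20, and at 26.0, 32.6 and 24.9 at 40. The groups overlapped throughout. From 0 to 40 the log2 change was 0.04 (SE 0.217) with DMSO and 0.14 (SE 0.218) with etoposide, with 103 ± 11.4% and 111 ± 2.89% of the starting level at 40 (SD, n = 3). The interferon pseudogene IFNWP19 on the opposite strand had 93 counts in replicate 2 of DMSO 0 and 0 in all other libraries, and MIR31HG was not out of its replicate's range in that library.

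MIR100HG, the host of miR-100, let-7a-2 and miR-125b-1, was the most counted of the 8. With DMSO it stood at 89.2, 113 and 161 CPM at 0, at 86.7, 88.3 and 164 at 20, and at 107, 97.0 and 142 at 40. With etoposide it stood at 120, 102 and 180 CPM at 0, at 83.2, 108 and 157 at 20, and at 80.2, 89.8 and 144 at 40. The library of replicate 3 was the highest in each of the 6 groups. The log2 change from 0 to 40 was -0.07 (SE 0.328) with DMSO and -0.36 (SE 0.328) with etoposide, and 98.0 ± 19.1% and 78.4 ± 11.0% of the starting level was present at 40 (SD, n = 3).

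MIR210HG is the host of miR-210, a microRNA known for its induction by hypoxia through HIF1A. It had 6 to 38 counts per library. With DMSO it stood at 1.87, 2.17 and 1.39 CPM at 0, at 2.48, 3.42 and 2.03 at 20, and at 1.92, 1.23 and 1.58 at 40. With etoposide it stood at 1.42, 0.602 and 1.53 CPM at 0, at 3.12, 0.825 and 2.62 at 20, and at 2.21, 2.19 and 1.66 at 40. At 20 it was above its time point 0 partner in all 6 libraries. At 40 every etoposide library was above every etoposide library of time point 0, with a log2 change of 0.76 (SE 0.45), while with DMSO the groups overlapped at -0.20 (SE 0.447). The second etoposide library of time point 0, at 6 counts, gave that pair 364% of its starting level, against 156% and 109% in the other 2 pairs.

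**Figure D3:**
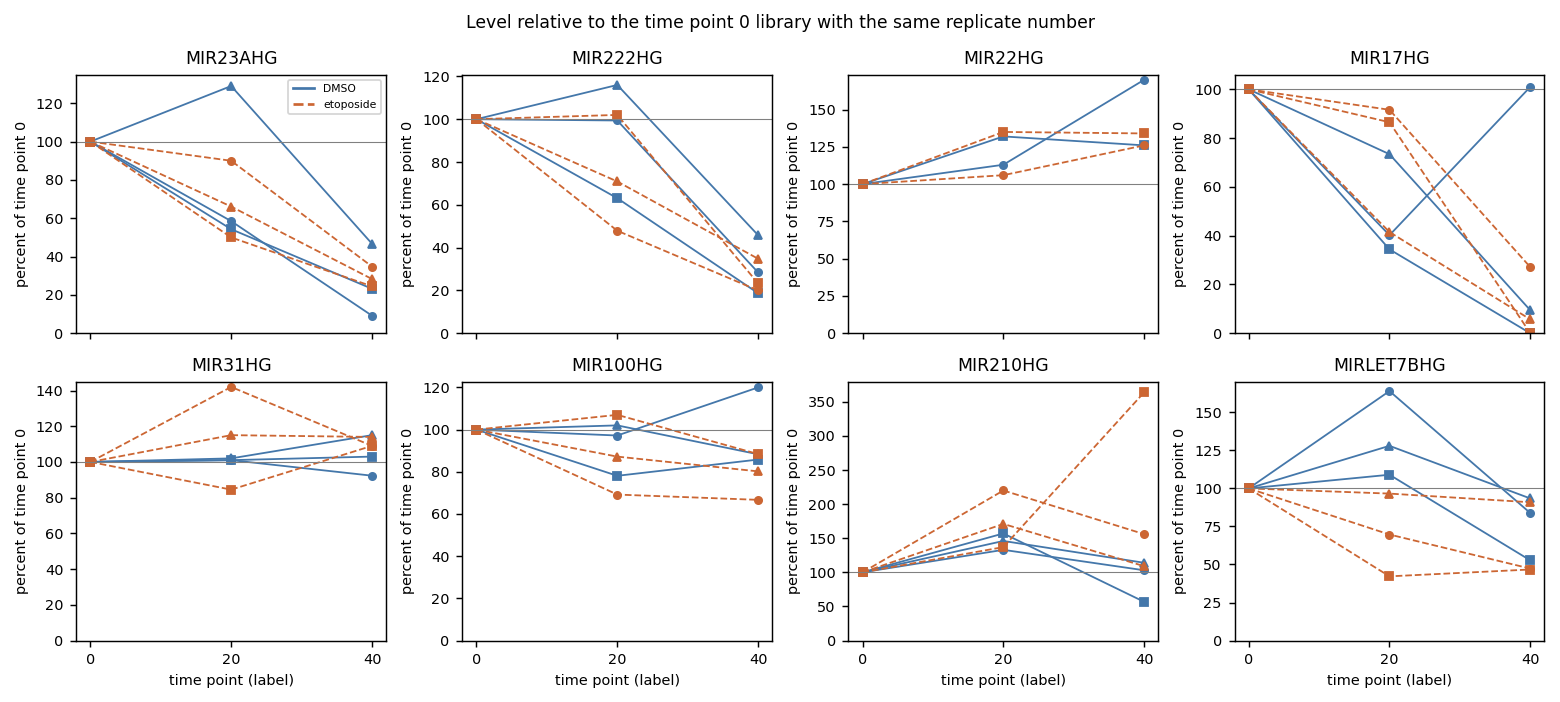
Level of each host at 20 and 40 as a percent of the time point 0 library with the same replicate number (y axis, linear from 0; x axis, time point as labelled), DMSO as blue solid and etoposide as orange dashed lines, 1 line per replicate number. MIR22HG has no lines for replicate 3, which held 0 counts. MIR23AHG and MIR222HG end below 50% in every line, and MIR31HG ends between 92.3% and 115%.

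Since the libraries of replicate 3 stood apart, the changes from 0 to 40 were also taken without them. MIR23AHG was then at -2.6 (SE 0.347) with DMSO and -1.83 (SE 0.33) with etoposide, and MIR222HG at -2.1 (SE 0.278) and -2.22 (SE 0.29) on the log2 scale. MIR17HG was at -1.37 (SE 0.94) and -2.84 (SE 1.05), and MIRLET7BHG at -0.61 (SE 0.344) and -1.08 (SE 0.343). MIR31HG and MIR100HG were at -0.02 (SE 0.216) and 0.02 (SE 0.172) with DMSO. For other values a range is given over 9 alternatives, this fit among them. With etoposide MIR31HG ran from 0.0506 to 0.153 and MIR100HG from -0.452 to -0.346. MIR210HG ran from -0.356 to -0.164 with DMSO and from 0.611 to 1.11 with etoposide. Without replicate 3 the fitted values of MIR23AHG, MIR222HG and MIR17HG were below -1 in both arms too. They come from a part of the same libraries and are no separate support. For MIR17HG with DMSO the SE of 0.94 leaves the size of the change poorly fixed.

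With libraries ranked by CPM, 3 of 8 hosts (MIR23AHG, MIR222HG and MIRLET7BHG) had all DMSO libraries of 40 below all of 0, where 4.42% of all tested genes did, and 0 had them all above, where 1.78% did. With etoposide 4 hosts (the same 3 and MIR17HG) had all libraries of 40 below all of 0, where 4.84% of tested genes did, and 1 (MIR210HG) had them all above, where 3.09% did. Among all tested genes the median log2 change from 0 to 40 was 0.01 with DMSO and 0.00 with etoposide. A change of -1 or lower was found in 2.43% and 1.46% of genes. MIR23AHG, MIR222HG and MIR17HG were below -1 in both arms. The hosts were chosen with these changes in view, so their places among all genes are a description and support nothing.

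**Figure D4:**
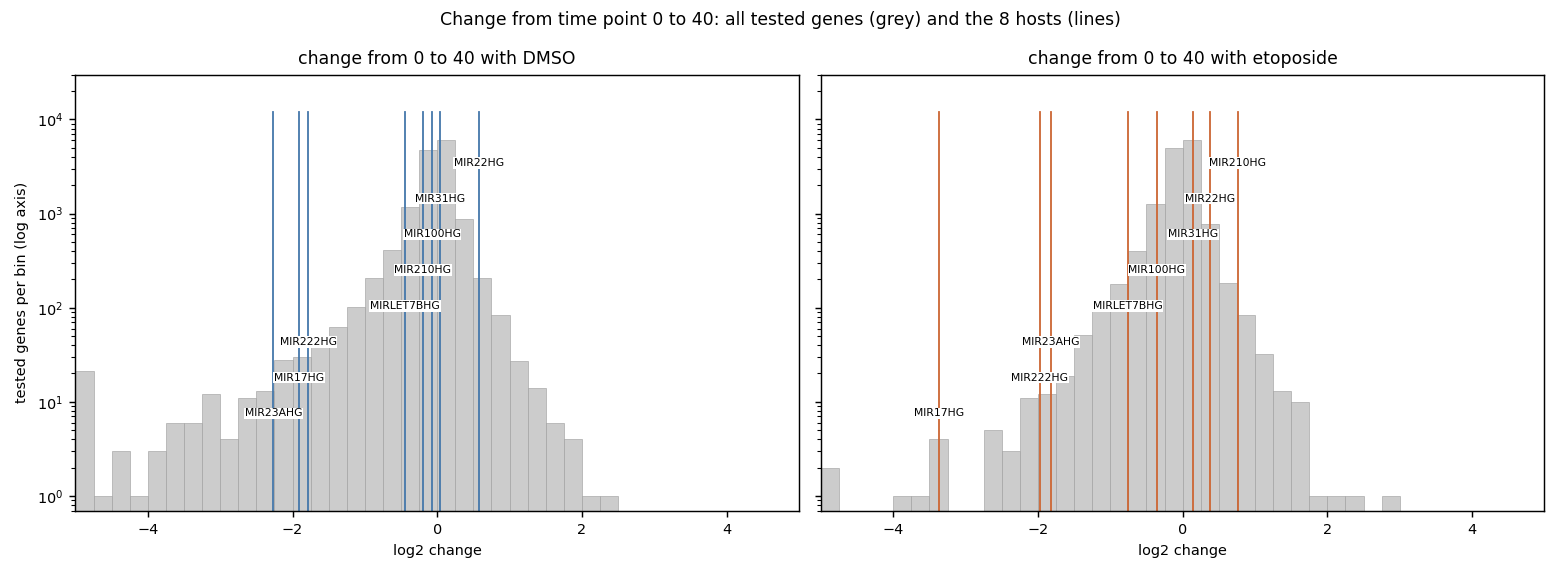
Log2 change from time point 0 to 40 of the 14186 tested genes in bins (grey, log y axis; values beyond the axis are counted in the end bins) with the 8 hosts as labelled lines, DMSO at left and etoposide at right. MIR23AHG, MIR222HG and MIR17HG lie in the lower tail in both panels, while MIR31HG lies in the central peak of both and MIR100HG in that of the DMSO panel and on its lower shoulder with etoposide.

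Etoposide was then set against DMSO at each time point. No host was called at 0, 20 or 40, and none in the difference between arms in the change from 0 to 20 or from 0 to 40, where 0% of all tested genes were called in each of these 5 comparisons. All 40 values had an adjusted p = 1 in edgeR's test. Before adjustment 4 of the 40 had a p under 0.05, 2 of MIR222HG and 2 of MIRLET7BHG. Over all 14186 tested genes 378, 108 and 139 had one at 0, 20 and 40, and 139 and 190 in the differences between arms from 0 to 20 and from 0 to 40. DESeq2 and limma-voom called none of the 40 values of hosts either, nor did the fit with the replicate number as a block. With the block the SE at 0 was 0.322 against 1.81 for MIR22HG and 0.235 against 0.387 for MIR23AHG. For MIR210HG it was 0.435 against 0.453. The SE and intervals below are from the fit without the block unless stated, and include spread between replicate numbers.

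MIR222HG was lower with etoposide than with DMSO in 3 of 3 replicate numbers at each time point. The log2 difference was -0.40 (SE 0.243, 95% interval -0.917 to 0.114) at 0, -0.77 (SE 0.245, interval -1.29 to -0.246) at 20 and -0.59 (SE 0.254, interval -1.13 to -0.0537) at 40, each with an adjusted p = 1 in edgeR's test. At 20 the highest etoposide library, 22.9 CPM, was below the lowest DMSO library, 27.1 CPM, while at 0 and 40 the groups overlapped. Its sign was the same in all 18 fits that left out a library, ranging from -0.614 to -0.267 at 0, from -0.906 to -0.613 at 20 and from -0.781 to -0.413 at 40. Leaving out a library of a group not compared hardly moves the value, which stayed at -0.40 at 0 in such fits. All these fits reuse the same libraries and are no separate support. Without replicate 3 the log2 difference of MIR222HG was -0.50 (SE 0.259) at 0, -0.73 (SE 0.263) at 20 and -0.63 (SE 0.299) at 40. The change from 0 to 40 differed between arms by -0.19 (SE 0.35, interval -0.931 to 0.552), which is within its error.

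MIRLET7BHG differed most between arms at 20, where its log2 difference was -0.63 (SE 0.273, interval -1.21 to -0.0482, adjusted p = 1 in edgeR's test). All 3 etoposide libraries of 20 were below all 3 DMSO libraries. At 0 the difference was 0.30 (SE 0.272) and at 40 it was -0.01 (SE 0.277). The change from 0 to 20 differed between arms by -0.93 (SE 0.386, interval -1.75 to -0.11, adjusted p = 1 in edgeR's test). Altogether 2 of 8 hosts, MIR222HG and MIRLET7BHG, had groups with no overlap at 20, where 2.8% of tested genes did in either direction. At 0 and at 40 it was 0 of 8 hosts, where 6.21% and 4.11% of tested genes did.

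The log2 differences of MIR23AHG were 0.22 (SE 0.387), 0.17 (SE 0.39) and 0.66 (SE 0.408) at 0, 20 and 40, with an interval at 40 of -0.208 to 1.53. Its value at 0 turned to -0.141 without replicate 3 of DMSO 0 and to -0.143 without replicate 2 of etoposide 0. The intervals of MIR31HG ran from -0.601 to 0.322 at 0, from -0.464 to 0.457 at 20 and from -0.495 to 0.426 at 40. With the replicate number as a block its SE was 0.14 at 0 and that of MIR100HG was 0.115, and neither was called. The log2 differences of MIR100HG were 0.14, 0.04 and -0.14 (SE 0.328 each) at 0, 20 and 40. MIR210HG was at -0.60 (SE 0.453), -0.27 (SE 0.434) and 0.36 (SE 0.444), and its change from 0 to 40 differed between arms by 0.96 (SE 0.634, interval -0.384 to 2.3). MIR17HG was at 0.53 (SE 0.771), 0.82 (SE 0.809) and -0.92 (SE 1.01), and the last value turned to 1.15 when replicate 1 of DMSO 40, with 12 counts, was left out. Its intervals spanned over 3 log2 units at each time point, and those of MIR22HG, with replicate 3 at 0 counts, over 7. Without replicate 3 the differences of MIR22HG were 0.37 (SE 0.346), 0.33 (SE 0.333) and 0.17 (SE 0.328).

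**Figure D5:**
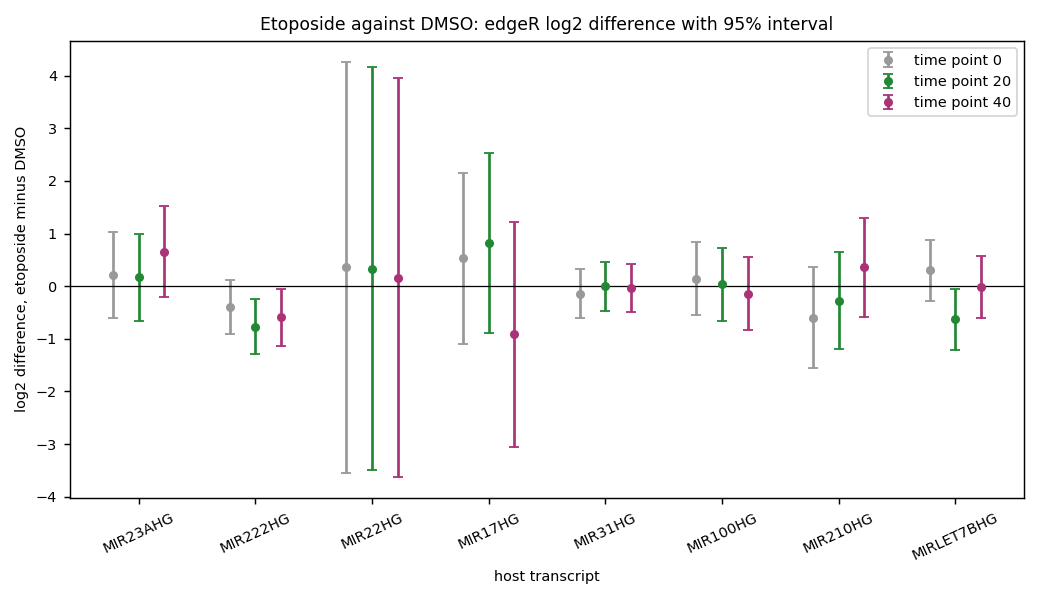
Log2 difference of etoposide minus DMSO for each host (y axis) at time points 0 (grey), 20 (green) and 40 (purple), with 95% intervals from edgeR's fit. Of the 24 intervals, those of MIR222HG at 20 and 40 and of MIRLET7BHG at 20 lie below 0, and no value was called after adjustment.

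Some other features of the hosts were read from the longest annotated transcript of each. The pentamer ATTTA, the core of AU-rich decay elements, was counted on the sense strand, overlaps allowed. MIR17HG held 13 copies (4.57 per kb), MIR222HG 4 (2.28 per kb), MIR100HG 6 (1.78 per kb), MIR22HG 4 (1.52 per kb), MIR210HG 1 and MIR23AHG 5 (0.262 per kb), and MIR31HG and MIRLET7BHG held 0. Among all tested genes the median was 1.08 per kb and 81.7% held the pentamer, and among the 1212 other long noncoding genes the median was 1.12 per kb and 75.6% held it, with no matching for length. The pentamer GGACT, a core sequence at which m6A is often placed, was absent from the transcripts of MIR222HG, MIR22HG and MIR31HG and present 15 times in that of MIR23AHG (0.787 per kb), with a median of 0.912 per kb and a share of 90.7% among all tested genes. MIR17HG, MIR222HG, MIR100HG and MIR22HG lay above the ATTTA median and the other 4 below it, and for GGACT all hosts but MIR210HG (1.02 per kb) lay below the median. GC content ran from 36.6% in MIR222HG to 63.0% in MIRLET7BHG.

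The genes most like a host over the 18 libraries were taken by Pearson's r of log2 CPM after removing each replicate number's mean, as a description, since the libraries share depth and time point. MIR23AHG was nearest to LIF (r = 0.969), a cytokine of the IL6 family, and to SOCS3 (r = 0.965), a feedback inhibitor of JAK-STAT signalling. MIR222HG was nearest to TGIF1 (r = 0.948), a repressor of TGF-beta signalling, ZNF669 (r = 0.94) and MTRFR (r = 0.935). MIR17HG was nearest to C21orf91 (r = 0.938), KCTD6 (r = 0.909) and the chemokine gene CCL2 (r = 0.901). Of the others, 4 hosts had a nearest gene at r = 0.821 to 0.871, namely CENPV for MIR22HG, RSPRY1 for MIR100HG, RAB5IF for MIR210HG and SDHAP3 for MIRLET7BHG.

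Of 78 other noncoding microRNA hosts listed, 20 passed the filter and 0 were called in any comparison. From 0 to 40 their median log2 change was -0.18 with DMSO and -0.30 with etoposide, against medians of 0.01 and 0.00 over all genes, and 2 of 20 were at -1 or lower in each arm. The most abundant was MIR4435-2HG, with a log2 change from 0 to 40 of 0.11 (SE 0.168) with DMSO and 0.06 (SE 0.168) with etoposide. MIRLET7IHG, host of let-7i, had 0.28 (SE 0.135) and -0.44 (SE 0.134), MIR34AHG, host of the p53-induced miR-34a, had -0.39 (SE 0.327) and 0.27 (SE 0.323), and MIR4458HG had -0.41 (SE 0.231) and -0.46 (SE 0.232). Of 34 protein-coding microRNA hosts, 33 were tested and 0 were called, with median changes of 0.05 with DMSO and 0.02 with etoposide. Of 28 genes of microRNA processing, export and Argonaute complexes, 26 were tested and 0 were called, with medians of 0.03 and -0.04. None of these lists had a member called between etoposide and DMSO.

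Hosts of small nucleolar RNAs, noncoding RNAs whose introns are processed to small RNAs, gave 25 tested of 28 listed. From 0 to 40 with DMSO 3 of the 25 were called lower, beside 0.423% of all tested genes, namely SNHG3 at -0.92 (SE 0.138), SNHG12 at -1.39 (SE 0.274) and SNHG15 at -1.07 (SE 0.208) on the log2 scale. With etoposide 1 was called, SNHG3 at -1.2 (SE 0.139), beside 0.204%. The list was drawn up with earlier results known, so these counts are a description. The median of the 25 was -0.32 with DMSO and -0.31 with etoposide. Among the 1212 other tested long noncoding genes, 6 were called with DMSO and 2 with etoposide, all lower.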

How the data were processed

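RNA of 18 libraries of hTERT RPE-1 cells was sequenced with a stranded kit for polyadenylated RNA, per the labels' protocols. The authors deposited 1 table of unnormalised whole-number counts for each library, made with bcl2fastq, HISAT2 and featureCounts on GRCh38, per the submitters' processing notes. Not given in the sources used here are the annotation release, how strand and multiple matches were handled, and tool versions. Of 58051 identifiers, 57447 matched GENCODE release 29.

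Counts were tested here with edgeR 4.0.16 in R 4.3.3 (quasi-likelihood, robust) in 1 model of 6 groups with TMM factors (0.978 to 1.02), after edgeR's default count filter (14186 genes, 99.84% of counts), with Benjamini-Hochberg adjustment over all tested genes and calls at an adjusted p under 0.05. Nothing ties the replicates to separate cultures beyond the labels' word independent. The floor of 3 counts carries no PCR error. The 95% intervals rest on the spread between libraries, in which PCR error is not told apart from other sources. Changes per replicate number used log2(CPM + 0.5), and likeness used log2 CPM with a prior count of 2. Likeness is not reported here for MIR31HG.

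Members and lists were chosen with earlier results of these data known. All 8 hosts are named in each comparison, and from each of 4 lists the 4 most abundant and any called gene could be named. Same-numbered libraries deviated together (45 of 45 pairs above 0.1, from 0.359 to 0.911; each of the 18 libraries was closest to its own number), which met the rule for treating the numbers in the labels as pairs. The reported model has no block, and the blocked fit is given beside a result where it changes a call. The SE, intervals and adjusted p of the reported model therefore include spread between replicate numbers that the block would remove. The first principal component (76% of variance) set replicate 3 apart, and the correlations were not computed without it. Alternatives were other scalings, no filter, DESeq2 1.42.0, limma-voom (limma 3.58.1), the replicate block, fewer groups, and leaving out libraries.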

Additional observations from a re-analysis of the deposited data

Results flagged for a closer look

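MIRLET7BHG, the host of let-7a-3 and let-7b, is listed because every replicate number moved one way with DMSO and the other way with etoposide between time points 0 and 20. On the log2(CPM + 0.5) scale the DMSO libraries changed by 0.664, 0.115 and 0.326 (replicates 1 to 3) and the etoposide libraries by -0.49, -1.13 and -0.0461. The difference itself was tested: it was -0.93 (SE 0.386) in edgeR's model, with an adjusted p = 1. The overlapping gene PRR34-AS1, on the same strand, differed between arms by -0.52 (SE 0.376) over the same interval, and its part in the result was not tested.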

How the results depend on the processing

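For the 8 hosts between etoposide and DMSO, 0 of 1079 values over the alternatives were called, with a lowest adjusted p = 0.796, and 65 differed in sign from the reported value. Over time, of 1295 values of single hosts, 12 lost a call, 17 gained one, 0 called values changed sign and 47 values with no call did. The hosts called from 0 to 40 with DMSO numbered 2, against 1 with limma-voom and 0 with the compared groups only, and 1 to 2 when a library was left out. From 0 to 40 with etoposide 1 was called, against 3 with DESeq2, 0 with the compared groups only, 2 with replicate 3 left out, and 1 to 2 when a library was left out (2 without replicate 3 of DMSO 0). From 20 to 40 with DMSO 1 was called, against 0 with housekeeping scaling, 2 with DESeq2, 0 with the compared groups only, 2 with replicate 3 left out, and 0 to 2 when a library was left out (0 without replicate 1 or 2 of DMSO 40, 2 without replicate 3 of DMSO 0). From 20 to 40 with etoposide 0 were called, against 1 with no count filter, 1 with DESeq2, 1 with replicate 3 left out, and 0 to 1 when a library was left out (1 without replicate 3 of DMSO 0 or of DMSO 40). The compared groups alone leave fewer libraries to estimate the spread. The cause of the other differences was not tested.

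With the replicate block, which pairs libraries by number, 3 hosts were called from 0 to 40 with etoposide, 2 from 20 to 40 with DMSO and 2 from 20 to 40 with etoposide. The block changed no other call of a host. Over all genes, 173 were called from 0 to 40 with DMSO with the block against 60 without it, 143 against 29 with etoposide, and 110 against 31 and 69 against 7 from 20 to 40. Scaling to housekeeping genes moved the median of all genes by 0.11 between etoposide and DMSO at 0. Depth limits MIR17HG, MIR210HG and MIR22HG, which had at most 67 counts in a library.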
